A study of Homo sapiens with 44 samples.

Results

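Chromatin accessibility was compared directly between Ccd18-Co colon fibroblasts given TGF-β1 (TGFB1) and the same cells given TNF, with 4 libraries on each side. The members were every library labelled with either cytokine, which makes 8 of the 44 libraries of the series, and every peak with enough coverage to test, which makes 407174 of 407383 peaks. Ccd18-Co is a single fibroblast line grown from human colon, so the comparison holds no variation between donors. Both cytokines were used at 10 ng/ml in serum-free medium, for a day after serum starvation per the study's methods, and unstimulated cells in the same medium serve below as a reference. ATAC-seq measures open chromatin, because a transposase inserts sequencing adaptors where DNA is accessible.

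TGF-β1 binds a receptor pair, TGFBR2 and TGFBR1, whose kinase activity leads to phosphorylated SMAD2 and SMAD3, which enter the nucleus with SMAD4 and bind GTCT and its complement. TNF binds TNFRSF1A and TNFRSF1B, which free NF-κB dimers from their IκB inhibitors so that they can occupy κB sites in promoters and enhancers. In gut fibroblasts TGF-β1 is best known for driving matrix deposition and contractile myofibroblasts, and TNF for driving chemokine, cytokine and adhesion genes.

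The clearest sequence difference between the directions was a κB site in peaks that were more open with TNF and a palindrome of the SMAD half-site in peaks more open with TGFB1. Stretches around these letters are shown first because the results below return to them. All are plus-strand hg38 sequence from the reference genome, with the letters that match the searched motif in capitals. The first set comes from peaks higher with TNF and is searched on both strands as GGGA, any base, TT, any base and CC. These peaks lie in an intron of STX8 (chr17:9389216-9389315), upstream of WWC1 (chr5:168289987-168290086), in an intron of SOD2 (chr6:159716271-159716370) and at the promoter of CXCL1 (chr4:73869269-73869368).
STX8 intron: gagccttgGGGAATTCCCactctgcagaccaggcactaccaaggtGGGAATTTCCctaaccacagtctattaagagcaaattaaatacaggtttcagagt
WWC1 upstream: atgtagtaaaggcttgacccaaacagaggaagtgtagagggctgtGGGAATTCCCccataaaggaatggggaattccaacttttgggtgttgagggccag
SOD2 intron: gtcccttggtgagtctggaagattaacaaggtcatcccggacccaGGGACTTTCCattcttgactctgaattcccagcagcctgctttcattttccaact
CXCL1 promoter: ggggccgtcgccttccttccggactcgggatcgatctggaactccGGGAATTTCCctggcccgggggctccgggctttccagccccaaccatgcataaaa
The second set comes from peaks higher with TGFB1 and is searched as GTCTAGAC, which reads the same on both strands. These peaks lie in introns of DNM3 (chr1:172293630-172293727), FARS2 (chr6:5274584-5274681) and RUNX1 (chr21:35160076-35160173) and between genes near BDKRB2 (chr14:96141134-96141231). Those in DNM3, FARS2 and near BDKRB2 were picked for their large differences after the values were seen. The RUNX1 peak and the κB peaks were also picked from called peaks that hold a match. All the stretches are therefore illustrations.
DNM3 intron: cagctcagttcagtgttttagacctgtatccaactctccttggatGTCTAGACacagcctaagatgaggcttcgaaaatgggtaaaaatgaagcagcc
BDKRB2 intergenic: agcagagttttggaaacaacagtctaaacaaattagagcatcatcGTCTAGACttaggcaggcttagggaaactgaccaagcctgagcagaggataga
FARS2 intron: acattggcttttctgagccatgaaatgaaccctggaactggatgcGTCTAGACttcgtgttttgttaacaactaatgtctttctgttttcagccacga
RUNX1 intron: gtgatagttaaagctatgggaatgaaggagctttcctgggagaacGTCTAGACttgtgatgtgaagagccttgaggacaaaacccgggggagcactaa

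Coverage was summed over peaks of 500 bases, and the total per library ran from 318.5 to 590.8 Mb with TGFB1, from 373.4 to 726.6 Mb with TNF and from 328.6 to 524.4 Mb in unstimulated libraries. Values are given as coverage per Mb of library total after a composition factor, and 3 reads amounted to between 0.39 and 0.724 per Mb in TGFB1 libraries and between 0.31 and 0.611 in TNF libraries. TGFB1 libraries were flatter than the others, in that their 1% most covered peaks held 11.8 to 13.1% of the coverage, against 13.7 to 13.9% with TNF and 13.8 to 14.6% without a cytokine. Start-site peaks of the 11 fibroblast marker genes summed to between 133 and 149 per Mb with TGFB1 and between 138 and 150 per Mb with TNF. Those of 4 epithelial markers, out of 9 listed, summed to at most 7.37 per Mb in these 8 libraries. As the sums cover unlike numbers of genes, medians per marker follow, for TGFB1 and then TNF. They were 9.07 and 8.86 per Mb for fibroblast, 1.21 and 1.08 for epithelial, and 7.15 and 8.76 for smooth muscle markers. Start sites of smooth muscle markers were thus nearly as open as those of fibroblast markers. The labels do not say whether replicates were separate cultures, so p-values measure a spread between libraries only. The fit estimated that spread from all 44 libraries of the series, with a mean-variance trend, and not from these 8 alone. In bulk libraries, a larger share of cells with an open site cannot be told apart from a more open site in each cell.

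Between the cytokines, 16227 peaks differed at an adjusted p-value under 0.05 (limma), which was 3.99% of those tested. Of these, 8123 were higher with TGFB1 (1.99%) and 8104 were higher with TNF (1.99%). A further measure without a model gave a larger number, as the 4 and 4 libraries did not overlap at 41685 peaks (10.2%), with the TGFB1 libraries all higher at 27438 (6.74%) and the TNF libraries all higher at 14247 (3.50%). That measure makes no allowance for chance, and some peaks separate in this way without any difference between the cytokines. The even split of calls depended on the scaling. The share of calls higher with TGFB1 was 50.1% here, 51.2% with median-of-ratios factors, 45.5% with library totals, 42.8% with cyclic loess and 22.1% when all tested peaks entered the composition factor. The median log2 difference over all peaks was 0.19, so values near that size at weakly covered peaks lie within a shift of the whole table. A GC correction gave 19.2% higher with TGFB1. The flatter profile of the TGFB1 libraries moves with this comparison, and its part in the split was not tested.

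More of the calls higher with TNF were shared by every scaling. Under each of these 5 scalings, 2858 peaks were higher with TGFB1 (0.702%) and 6192 were higher with TNF (1.52%). Adding the GC correction left 2619 (0.643%) and 6185 (1.52%). Peaks higher with TNF were well covered, with a median of 6.71 per Mb against 0.905 over all tested peaks, and 98.9% of them reached 1 per Mb. Peaks higher with TGFB1 had a median of 2.01 per Mb, which rose to 4.22 in those called under each scaling. The directions also differed in position. A start site lay within 1 kb of 19.2% of peaks higher with TNF and of 6.5% of peaks higher with TGFB1, against 14.7% of all tested peaks. At the stricter level these shares were 13.3% and 5.84%. By the deposited class, introns held 49.4% of peaks higher with TNF and 54.1% of peaks higher with TGFB1, both near the 51.7% of all tested peaks.

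**Figure D1:**
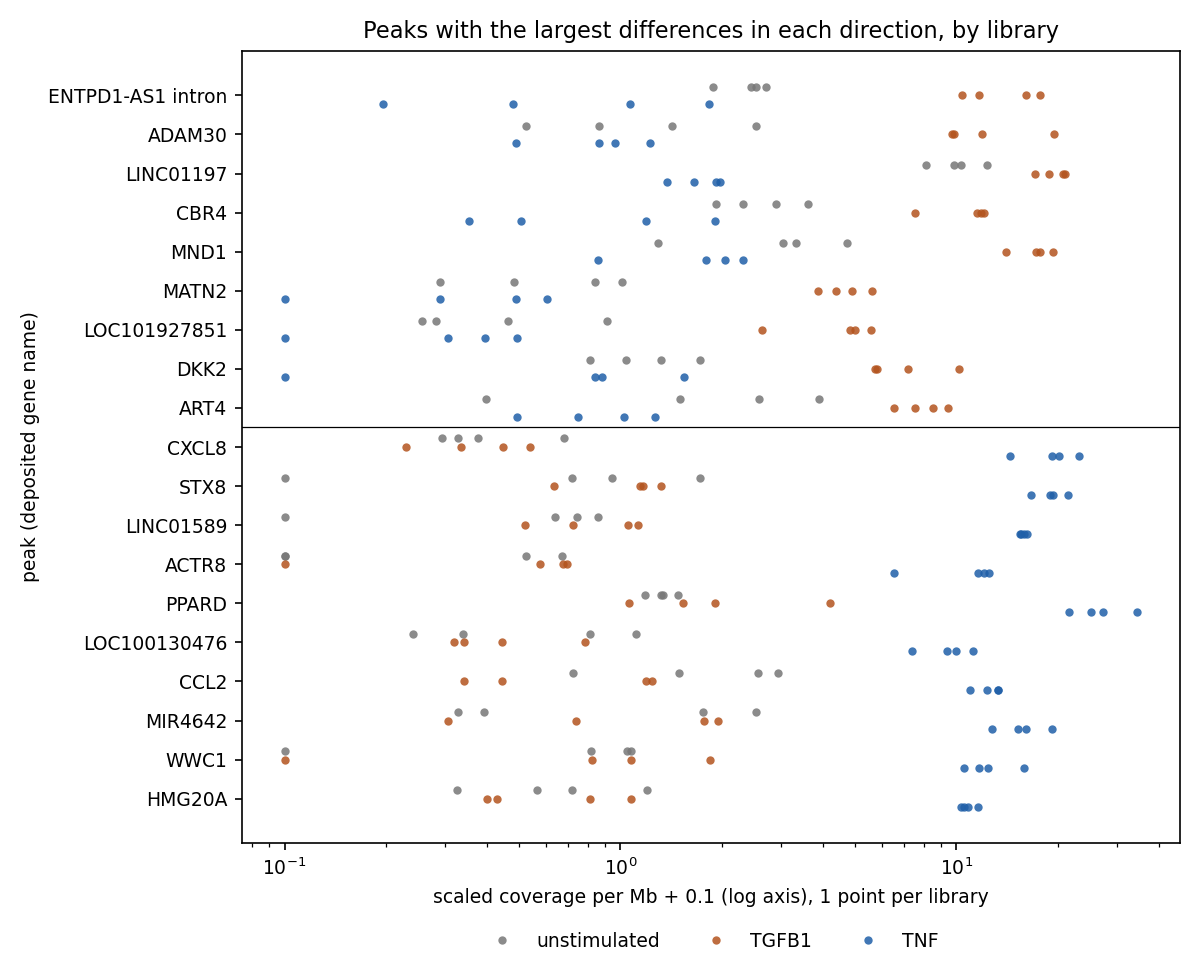
Coverage per Mb plus 0.1 on a log axis, with 1 point per library, in 19 of the 20 called peaks with the largest differences (10 in each direction), by deposited gene name. The upper rows are higher with TGFB1 and the lower rows higher with TNF. No TGFB1 point overlaps a TNF point, because only peaks without such overlap were ranked. Unstimulated libraries sit with or near the low group in most rows. They lie between the groups for LINC01197, far from both, and just above TNF for the ENTPD1-AS1 intron and CBR4.

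The peaks with the largest differences were ranked by those differences, so their sizes are descriptions of the extremes. Only peaks where the TGFB1 and TNF libraries did not overlap entered the ranking, so that separation follows from the choice. With TNF the largest lay in the CXCL8 gene, over its UTR at chr4:73741958-73742458. CXCL8 is a neutrophil chemoattractant and a classical NF-κB target. Coverage per Mb there was 23.1, 19.2, 20.1 and 14.3 in TNF libraries, 0.235, 0.346, 0.436 and 0.13 in TGFB1 libraries, and 0.276, 0.579, 0.228 and 0.195 in unstimulated libraries. The TNF libraries were far above both other groups, and each TGFB1 library was at or under the coverage of 3 reads. The log2 difference of TGFB1 minus TNF was -4.64 (SE 0.38, adjusted p = 1.92e-23). That size follows the pseudocount of 0.5 per Mb, which is added before the log.

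The STX8 intron peak shown above carried a pair of κB matches. STX8 encodes a SNARE protein of endosomal membrane fusion. Coverage per Mb was 16.6, 21.4, 19.3 and 18.9 with TNF, 1.07, 1.04, 0.535 and 1.22 with TGFB1 and 0.846, 0, 0.619 and 1.63 in unstimulated libraries. TGFB1 and unstimulated libraries shared the low range, and the difference was -3.76 (SE 0.32, adjusted p = 1.24e-22). An intron peak of PPARD, a lipid-sensing nuclear receptor, held 25.0, 34.4, 27.2 and 21.5 per Mb with TNF against 0.962, 4.1, 1.43 and 1.81 with TGFB1. Its difference was -3.54 (SE 0.33, adjusted p = 7.29e-19). A peak in a UTR of FBLN1, an extracellular matrix protein of the fibulin family, held between 15.4 and 16.1 per Mb in the TNF libraries and between 0.418 and 1.03 with TGFB1. The deposited name of this peak is LINC01589, and its difference was -3.72 (SE 0.36, adjusted p = 8.73e-18).

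Among the peaks most open with TGFB1, the largest difference lay in an intron of ENTPD1-AS1 (chr10:95895358-95895858). TGFB1 libraries held 11.6, 17.6, 16.0 and 10.3 per Mb, TNF libraries 0.97, 0.38, 0.0968 and 1.73, and unstimulated libraries 2.61, 2.43, 2.35 and 1.79. Here the unstimulated libraries lay above every TNF library and below every TGFB1 library. The difference between the cytokines was 3.62 (SE 0.34, adjusted p = 2.92e-19). An intergenic peak named for LINC01197 (chr15:95162047-95162547) also separated into 3 levels. It held 20.9, 18.8, 20.6 and 17.0 per Mb with TGFB1, 1.56, 1.28, 1.82 and 1.88 with TNF, and 12.2, 10.2, 8.02 and 9.71 in unstimulated libraries. Its difference was 3.22 (SE 0.20, adjusted p = 1.03e-36), of which the larger step was a loss with TNF, at -2.3 against unstimulated (adjusted p = 1.21e-21). The TGFB1 libraries were 0.92 above unstimulated (adjusted p = 0.000642).

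Other peaks of this kind were low without a cytokine. An intron peak of NOTCH2, a receptor that passes signals between neighbouring cells, held 9.59, 11.8, 19.4 and 9.71 per Mb with TGFB1 and between 0.388 and 1.12 with TNF, and differed by 3.33 (SE 0.37, adjusted p = 4.27e-14). The peak is named for ADAM30 in the deposited table. An intron peak of DKK2, a secreted modulator of Wnt signalling, held between 5.64 and 10.1 per Mb with TGFB1 and between 0 and 1.45 with TNF (difference 2.74, SE 0.37, adjusted p = 1.76e-09).

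**Figure D2:**
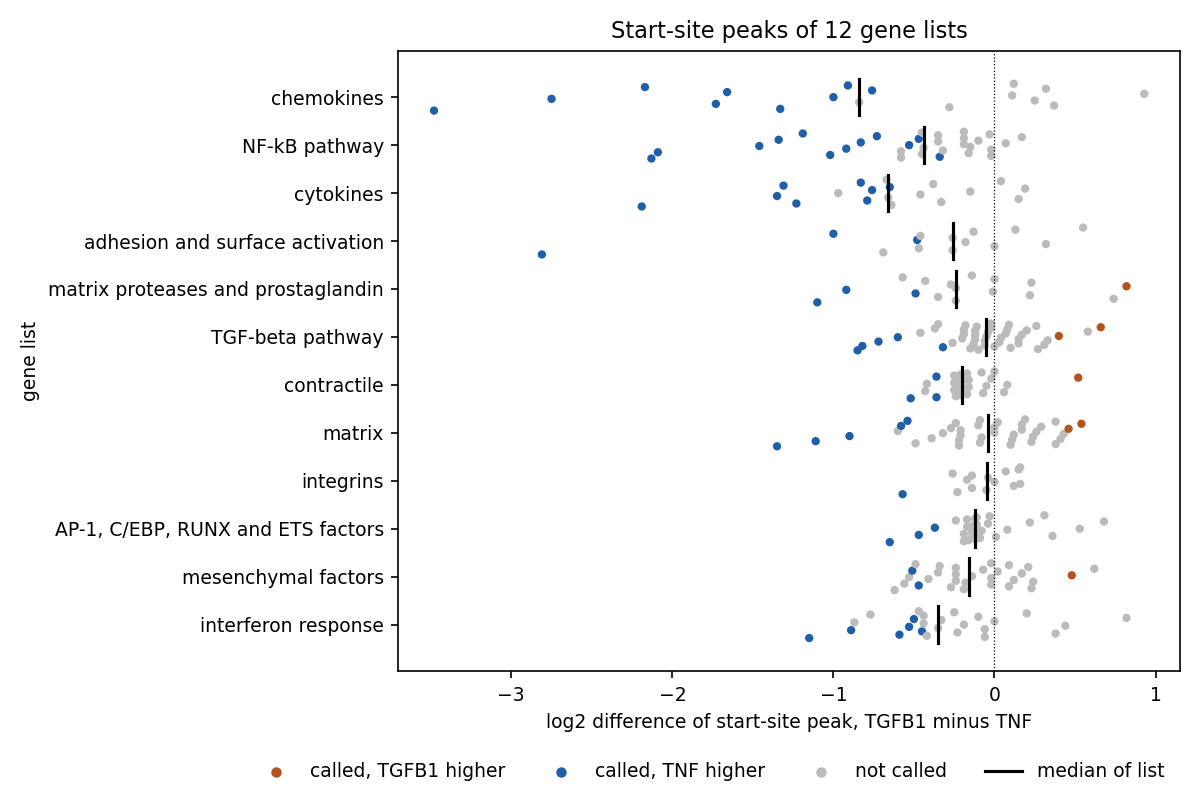
Log2 difference of TGFB1 minus TNF at the start-site peak of each gene in 12 lists, with 1 point per gene, coloured where called, and a bar at the median of the list. Chemokine, NF-κB and cytokine genes extend to the left, towards TNF, down to -3.48 for CXCL8, while called points to the right of 0 are few and below 1.

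Start-site peaks were then read for 12 gene lists, taking for each gene the tested peak nearest to a start site within 1 kb. Over all 59706 tested peaks within 1 kb of any annotated start site, 0.884% were higher with TGFB1 and 2.61% with TNF, with a median difference of 0.0. That set is wider, as it is not limited to 1 peak per gene. Its median coverage was 2.61 per Mb, so its shares are not a like-for-like background for the lists. Receptors and ligands differed little. TNFRSF1A, the main TNF receptor on fibroblasts, had a difference of -0.19 (adjusted p = 0.626) and TNFRSF1B one of -0.16 (adjusted p = 0.791). The TNF gene itself gave -0.33 (adjusted p = 0.706), TGFB1 gave 0.27 (adjusted p = 0.398) and TGFBR1 gave 0.17 (adjusted p = 0.56). TGFBR2, the receptor that binds TGF-β1 first, was called lower with TGFB1 at -0.32 (SE 0.10, adjusted p = 0.0456), but its libraries overlapped and the call was lost under 9 of 22 alternatives, among them leaving out TGFB1 library 1 or 3 or TNF library 1, 2 or 4 (-0.31 to -0.24).

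Of 31 NF-κB pathway genes, 12 were higher with TNF, 0 were higher with TGFB1 and 19 were not called, with a median of -0.44. Across all scalings, the GC correction and a start-site window of 2 kb, the count ran from 10 to 15. At the start site of BIRC3, an inhibitor of cell death and ubiquitin ligase downstream of the TNF receptor, coverage was 29.8, 27.9, 27.4 and 26.5 per Mb with TNF, 7.31, 6.88, 5.68 and 5.0 with TGFB1 and 5.5, 6.01, 6.65 and 7.97 in unstimulated libraries. TGFB1 and unstimulated libraries shared a range, well below TNF, and the difference was -2.09 (SE 0.19, adjusted p = 1.78e-20). NFKB1, which encodes the p50 precursor, held 8.66, 9.77, 10.2 and 13.9 per Mb with TNF and 4.31, 4.44, 3.75 and 3.01 with TGFB1. The groups were apart, with a difference of -1.34 (SE 0.22, adjusted p = 1.02e-06). The inhibitors NFKBIA (IκBα), NFKBIB and NFKBIE, the deubiquitinases TNFAIP3 and CYLD, the non-canonical subunit NFKB2, the adaptor TRAF3, the kinases IKBKE and MAP3K8 and the TNFAIP3 partner TNIP3 made up the rest of the called genes. NFKBIB and CYLD were not called for TNF against unstimulated (0.02, adjusted p = 0.944 and -0.10, adjusted p = 0.711). Both were lower with TGFB1 than in unstimulated libraries (both -0.44, adjusted p = 3.14e-06 and 9.4e-05).

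Over every peak that carries their names, NF-κB pathway genes had 79 of 981 peaks higher with TNF (8.05%) and 16 higher with TGFB1 (1.63%). NFKBIA had 14 peaks higher with TNF and 1 higher with TGFB1 out of 77. The most different, 3.48 kb from its start site, held between 11.6 and 15.1 per Mb with TNF and between 0.541 and 2.81 with TGFB1 (difference -3.0, SE 0.30, adjusted p = 3.43e-17). NFKB2 had 8 of 43 and TNIP1, which binds TNFAIP3 and dampens NF-κB, had 8 of 48, with none in the other direction. Near WAKMAR2, 17 of 68 peaks deposited under the name LOC100130476 were higher with TNF and 0 with TGFB1, and 16 of the 17 were also called for TNF against unstimulated.

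Chemokines had the highest share of called start sites. Of 17 genes, 9 were higher with TNF and 0 with TGFB1, with a median of -0.84, and the count was 9 under every other scaling. At the start site of CXCL8, coverage was 29.9, 26.4, 17.7 and 21.2 per Mb with TNF, 2.04, 2.96, 0.594 and 1.66 with TGFB1 and 3.05, 2.09, 2.11 and 1.83 in unstimulated libraries. Of these groups the TNF libraries alone were open to this degree, and the difference was -3.48 (SE 0.30, adjusted p = 3.36e-22). CXCL10, which attracts activated T cells, held 7.72, 8.83, 12.0 and 9.19 per Mb with TNF and 1.65, 0.693, 0.898 and 0.776 with TGFB1 (difference -2.75, SE 0.32, adjusted p = 3.98e-13).

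The start sites of CXCL1 and CCL2 fell into 3 levels. CXCL1, a neutrophil chemoattractant, held 32.2, 32.9, 35.4 and 34.3 per Mb with TNF, 11.5, 11.8, 12.0 and 11.4 in unstimulated libraries and 7.36, 6.34, 6.8 and 7.99 with TGFB1. No pair of groups overlapped. TGFB1 was below TNF by a log2 difference of -2.17 (SE 0.15, adjusted p = 1.85e-30) and below unstimulated by -0.68 (adjusted p = 0.00117). CCL2, which attracts monocytes, held 29.5, 25.9, 26.5 and 27.6 per Mb with TNF, 14.4, 11.5, 14.2 and 13.8 in unstimulated libraries and 6.48, 9.35, 8.6 and 7.5 with TGFB1. Again the 3 groups were apart, with -1.73 between the cytokines (SE 0.15, adjusted p = 1.97e-21) and -0.73 between TGFB1 and unstimulated (adjusted p = 0.000299). CCL11, an eosinophil chemoattractant, was called as well, yet TNF stood at -0.19 against unstimulated (adjusted p = 0.828) while TGFB1 stood at -1.1 (adjusted p = 0.000616). CXCL2, CXCL3, CXCL5 and CXCL6 were the other called chemokines, and each of these start-site peaks held the κB letters, as did those of CXCL1 and CXCL10. The start-site peaks of CXCL8, CCL2 and CCL11 were called without a match, and that of CCL5 held 1 match and was not called. CXCL12, CCL20 and CXCL11 were not called, at 0.12, 0.32 and -0.84.

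Around the start sites, 67 of 359 peaks named for chemokines were higher with TNF (18.7%) and 7 were higher with TGFB1 (1.95%). CXCL8 had 17 of 44 higher with TNF, spread from -35.86 to 24.13 kb around the start site. All 17 were called for TNF against unstimulated, with a median of 3.12, while TGFB1 against unstimulated had a median of 0.16 at the same peaks. The single CXCL8 peak higher with TGFB1 held between 0.915 and 1.65 per Mb with TGFB1 and at most 0.205 with TNF, a value under 3 reads. CCL2 had 14 of 30 peaks higher with TNF, of which the most different held between 10.9 and 13.2 per Mb with TNF and between 0.241 and 1.14 with TGFB1 (difference -3.51, SE 0.29, adjusted p = 1.22e-23). CXCL1 had 11 of 46, and 6 of these 11 were also called for TGFB1 against unstimulated, with a median of -0.63.

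Cytokine genes followed, with 8 of 19 start-site peaks higher with TNF, 0 higher with TGFB1 and a median of -0.66. IL32, a proinflammatory cytokine, held 14.4, 13.9, 14.5 and 13.4 per Mb with TNF, 2.35, 4.0, 1.86 and 2.94 with TGFB1 and 1.48, 2.8, 1.45 and 3.43 in unstimulated libraries. TGFB1 and unstimulated libraries overlapped each other and not TNF (difference -2.19, SE 0.26, adjusted p = 1.63e-12). IL1B, the gene of a fever-inducing cytokine, held 9.79, 11.3, 12.1 and 11.9 per Mb with TNF and 1.92, 6.39, 6.78 and 4.64 with TGFB1 (difference -1.23, SE 0.23, adjusted p = 2.96e-05). IL6 and LIF, both ligands that signal through gp130, differed by -0.76 (adjusted p = 0.000412) and -0.83 (adjusted p = 0.00145). IL33, TNFSF15, IL15 and CSF1 were the other calls, and that of IL33 was lost without TGFB1 library 1 (-0.96, adjusted p = 0.20), TGFB1 library 3, TNF library 2 or TNF library 4. IL11, a gp130 ligand linked to fibrosis, was not called at 0.15 (adjusted p = 0.622). LIF had 16 of 48 named peaks higher with TNF and CSF1, a macrophage growth factor, had 9 of 71.

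Surface molecules and enzymes were less uniform. Of 14 adhesion and surface genes, 3 were higher with TNF, led by ICAM1, which binds leukocyte integrins. ICAM1 held 16.3, 17.8, 18.3 and 16.6 per Mb with TNF, 2.22, 2.61, 1.08 and 2.54 with TGFB1 and 2.36, 3.51, 5.1 and 2.95 in unstimulated libraries. The TNF libraries stood apart (difference -2.81, SE 0.26, adjusted p = 1.01e-18). VCAM1, a ligand of leukocyte integrins too, was at -1.0 (SE 0.28, adjusted p = 0.0181). That call ended without TGFB1 library 1 (-0.69, adjusted p = 0.195), TGFB1 library 4 or TNF library 2, and the unstimulated libraries (1.62 to 4.58 per Mb) overlapped both cytokine groups. CD82, a tetraspanin, was lower with TGFB1 than in both other groups, at -0.48 against TNF (adjusted p = 0.000282) and -0.51 against unstimulated (adjusted p = 0.000113). Among 16 proteases and prostaglandin genes, SOD2, PTGES and ADAMTS4 were higher with TNF and TIMP3 was higher with TGFB1. The ADAMTS4 call (-0.49, adjusted p = 0.0428) was lost without any 1 of TGFB1 libraries 2 to 4 or TNF libraries 2 to 4 (-0.52 to -0.43).

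SOD2, the mitochondrial superoxide dismutase and a TNF target, held 21.3, 22.2, 26.3 and 22.8 per Mb at its start site with TNF and 12.0, 10.2, 9.61 and 10.2 with TGFB1 (difference -1.1, SE 0.15, adjusted p = 3.91e-09). Its intron peak with the κB match shown above held 15.3, 19.2, 19.2 and 19.3 per Mb with TNF, 2.73, 1.81, 1.65 and 2.4 with TGFB1 and 3.42, 3.5, 2.95 and 3.75 in unstimulated libraries. TNF was above both, with a difference of -2.84 (SE 0.24, adjusted p = 9.23e-23). The deposited table names this region for the neighbouring gene WTAP, under which 19 of 186 peaks were higher with TNF, the largest number under any name. TIMP3, an inhibitor of matrix metalloproteinases bound to matrix, held 13.3, 10.0, 11.8 and 10.6 per Mb with TGFB1, 4.81, 4.59, 6.34 and 10.6 with TNF and 6.16, 5.06, 7.02 and 8.73 in unstimulated libraries. The fourth TNF library reached into the TGFB1 range, and the difference was 0.82 (SE 0.18, adjusted p = 0.000931). MMP1 and MMP3, a collagenase and a stromelysin, were not called, at 0.0 and -0.57 (adjusted p = 0.994 and 0.154).

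Interferon-response genes had 6 of 25 start-site peaks higher with TNF, 0 higher with TGFB1 and a median of -0.35. The count ran from 3 to 13 across scalings, the GC correction and the 2 kb window. OAS3, an antiviral enzyme, held 15.8, 20.5, 16.7 and 16.2 per Mb with TNF, 7.49, 7.82, 12.4 and 9.22 with TGFB1 and 10.8, 14.3, 13.8 and 12.1 in unstimulated libraries. Unstimulated libraries lay between and overlapped TGFB1 (difference -0.89, SE 0.15, adjusted p = 2.17e-06). Against unstimulated, neither cytokine was called at this peak (TGFB1 -0.46, adjusted p = 0.0595 and TNF 0.43, adjusted p = 0.0868). IFIH1, a sensor of viral RNA, differed by -1.15 (SE 0.21, adjusted p = 1.53e-05). The transcription factors IRF2, IRF7 and IRF9 and the GTPase GBP1 were also called, at differences from -0.59 to -0.45. Those of IRF2 and GBP1 were lost without TGFB1 library 4 and TGFB1 library 1 (-0.42, adjusted p = 0.11 and -0.41, adjusted p = 0.137), and without TNF library 2 and TNF library 4.

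**Figure D3:**
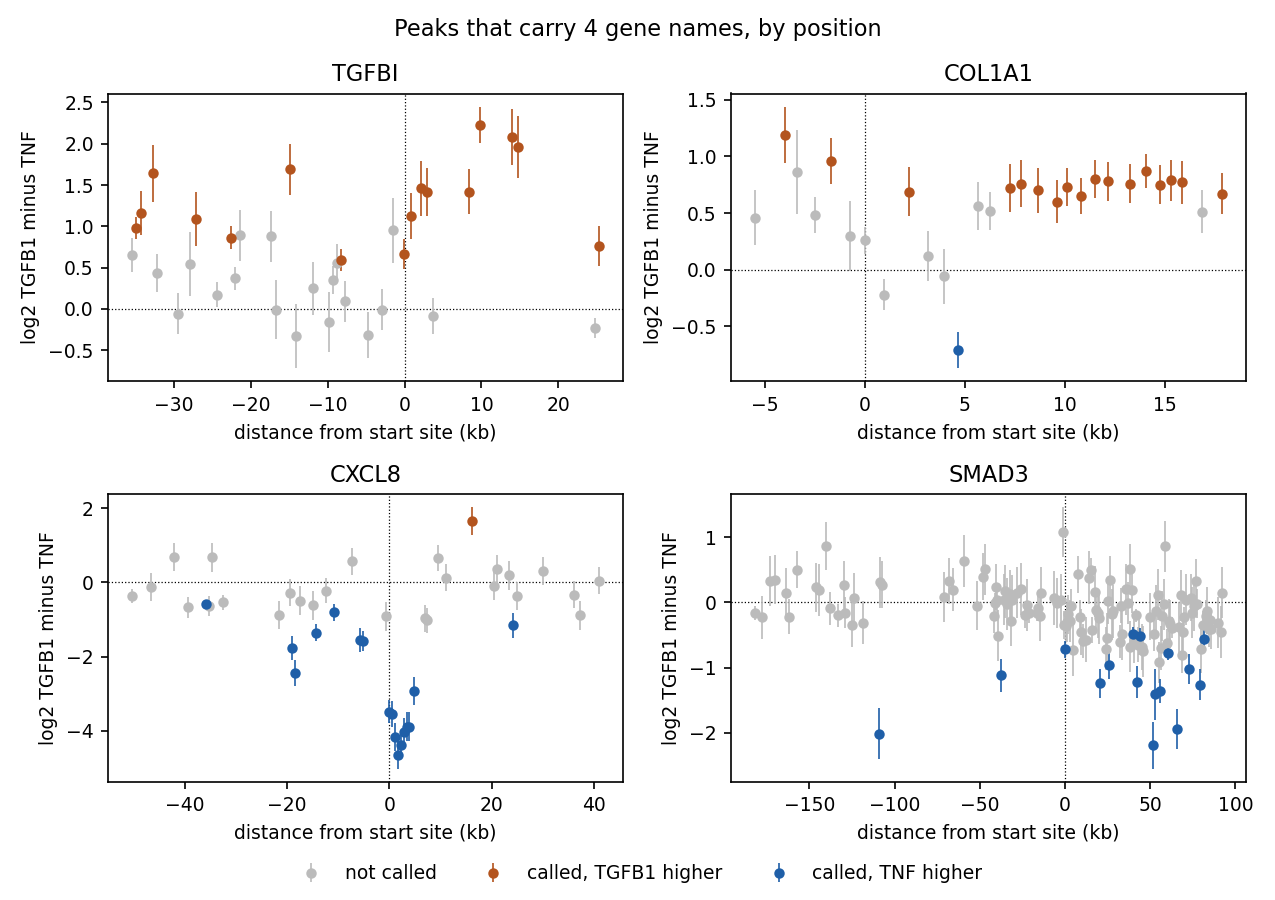
Log2 difference of TGFB1 minus TNF, with its SE, against distance from the start site in kb, for peaks named for TGFBI, COL1A1, CXCL8 and SMAD3. Called peaks of TGFBI lie above 0, as do those of COL1A1 except 1 at 4.65 kb (-0.71), those of CXCL8 fall to -4.64 just past its start site, and those of SMAD3 lie below 0 from -109.2 to 81.56 kb.

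TGF-β pathway genes did not move one way. Of 44 start-site peaks, 2 were higher with TGFB1, 5 were higher with TNF and 37 were not called, with a median of -0.05. Across scalings, the GC correction and the 2 kb window, the first count ran from 0 to 2 and the second from 3 to 6. SMAD6, an inhibitory SMAD, was higher with TGFB1 at 0.40 (adjusted p = 0.032), although its libraries overlapped. TGFBI, a matrix protein named for its induction by TGF-β, held 18.4, 12.9, 18.0 and 12.2 per Mb with TGFB1, 12.5, 6.95, 9.55 and 9.23 with TNF and 10.3, 10.6, 9.29 and 10.0 in unstimulated libraries. The lowest TGFB1 library was below the highest TNF library, and the difference of 0.66 (SE 0.18, adjusted p = 0.0113) was lost without TGFB1 library 1 or 3 or TNF library 2 (0.53 to 0.58) and when all tested peaks set the composition factor. SMAD3, the signal transducer itself, was lower with TGFB1, at 14.2, 15.4, 14.7 and 8.76 per Mb against 22.7, 18.4, 21.4 and 24.3 with TNF. The difference was -0.72 (SE 0.13, adjusted p = 3.28e-05), and neither cytokine was called against unstimulated (TGFB1 -0.42, adjusted p = 0.0562 and TNF 0.30, adjusted p = 0.267).

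The remaining calls of this list were the co-repressor SKI, the BMP antagonist GREM1, the activin subunit INHBA and TGFBR2, all higher with TNF. CCN2, a matricellular protein and classical TGF-β target, gave 0.07 and was not called. SMAD7, the feedback inhibitor of the receptor, gave -0.20 at its start site (adjusted p = 0.814), where all 3 groups were low.

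Away from start sites both directions were represented. Over 1896 peaks named for its genes, 63 were higher with TGFB1 (3.32%) and 59 were higher with TNF (3.11%). For TGFBI, 16 of 36 peaks were higher with TGFB1 and 0 with TNF, from -34.95 to 25.36 kb around its start site. Of the 16, 12 were called under each of 5 scalings, 10 were also called for TGFB1 against unstimulated (median 0.81) and 2 for TNF against unstimulated (median -0.42). The most different, in a TGFBI intron 9.81 kb from the start, held 18.6, 15.6, 12.7 and 11.0 per Mb with TGFB1, 2.92, 1.81, 1.86 and 4.67 with TNF and 11.4, 5.88, 7.29 and 7.58 in unstimulated libraries. TNF libraries were below the rest, and the difference was 2.23 (SE 0.22, adjusted p = 4.81e-17).

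SMAD3 showed the opposite, with 16 of 139 peaks higher with TNF and 0 with TGFB1, all 16 under each of 5 scalings. Of these, 11 were called for TNF against unstimulated (median 0.88) and 2 for TGFB1 against unstimulated (median -0.26). Its most different peak, in an intron, held 5.52, 5.38, 4.13 and 8.75 per Mb with TNF and 0.685, 1.26, 1.39 and 0.385 with TGFB1 (difference -2.19, SE 0.36, adjusted p = 8.07e-07). SMAD7 had calls both ways, with 6 of 124 higher with TGFB1 and 4 higher with TNF. A SMAD7 intron peak 10.4 kb from the start held 8.86, 4.84, 3.21 and 3.98 per Mb with TGFB1, 1.23, 1.01, 1.17 and 0.637 with TNF and 0.882, 1.05, 1.13 and 1.66 in unstimulated libraries. TNF and unstimulated libraries shared the low range, and the difference between the cytokines was 1.85 (SE 0.35, adjusted p = 4.95e-05).

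Matrix genes had the most TGFB1-higher peaks of the 12 lists, 102 of 2009 (5.08%), against 52 higher with TNF (2.59%). At start sites the balance was different, with 2 of 38 higher with TGFB1, 5 higher with TNF and a median of -0.04. The first count ran from 0 to 4 and the second from 3 to 9 across scalings, the GC correction and the 2 kb window. FBLN5, which organises elastic fibres, and PLOD2, a collagen lysyl hydroxylase, were the calls higher with TGFB1, at 0.54 (adjusted p = 0.00907) and 0.46 (adjusted p = 0.0149), and with the composition factor over all tested peaks no matrix start site was called in that direction. Start sites of COL1A1, COL1A2, COL3A1 and FN1, the fibrillar collagens and fibronectin, were not called, at 0.26, 0.0, 0.11 and 0.12. COL14A1, a collagen that binds fibril surfaces, was higher with TNF than with TGFB1, yet the TNF libraries (13.7, 13.4, 12.0 and 10.7 per Mb) lay near the unstimulated ones (17.3, 12.2, 13.0 and 13.4) and the TGFB1 libraries were low (3.12, 6.05, 6.13 and 3.72). The difference was -1.35 against TNF (SE 0.17, adjusted p = 2.26e-11) and -1.5 against unstimulated (adjusted p = 1.5e-13). LUM and DCN, small proteoglycans that bind collagen, were higher with TNF at -1.11 (adjusted p = 0.00012) and -0.90 (adjusted p = 0.0116). TNC and FBN2 were the other calls in that direction. The DCN call was lost without TNF library 1 (-0.82, adjusted p = 0.0605) and that of FBN2 without TNF library 4 (-0.51).

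COL1A1, the main chain of type I collagen, had 17 of 29 peaks higher with TGFB1 and 1 higher with TNF, and 8 of the 17 were called under each of 5 scalings. They lay from -4.0 to 17.88 kb around the start site, most of them past it along the gene body, with a median difference of 0.76. None of the 17 was called for TGFB1 against unstimulated (median 0.13), while 12 were called for TNF against unstimulated, with a median of -0.68. SERPINE2, an inhibitor of thrombin and plasminogen activators, had 14 of 64 peaks higher with TGFB1 and 2 higher with TNF. There 8 of the 14 were called for TGFB1 against unstimulated (median 1.18) and 1 for TNF (median -0.21). The SERPINE2 peak with the largest difference held 13.4, 13.4, 15.0 and 12.9 per Mb with TGFB1, 2.63, 2.37, 5.14 and 3.16 with TNF and 4.37, 5.88, 9.06 and 3.89 in unstimulated libraries. TGFB1 was above both (difference 1.94, SE 0.25, adjusted p = 2.38e-10). THBS1, which can activate latent TGF-β, had 14 of 132 higher with TGFB1, of which 2 were called for TGFB1 and 8 for TNF against unstimulated.

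COL6A3, a chain of the beaded-filament collagen VI, had 9 of 142 peaks higher with TGFB1 and 1 higher with TNF. KIF26B, a kinesin family protein, reached 14 of 134 and 1, and its most different intron peak held 28.5, 26.2, 26.3 and 26.4 per Mb with TGFB1 against 10.5, 5.89, 6.2 and 6.84 with TNF (difference 1.83, SE 0.19, adjusted p = 1.71e-16). RND3, which counters RhoA and stress fibres, was among the names with most peaks higher with TNF, at 16 of 119. Its intron peak with a κB match held 17.6, 25.2, 21.6 and 22.6 per Mb with TNF and 3.22, 2.59, 6.13 and 4.61 with TGFB1 (difference -2.31, SE 0.25, adjusted p = 6.38e-15).

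Contractile genes, which define myofibroblasts, differed by small amounts at their start sites. Of 27 start-site peaks, 1 was higher with TGFB1, 3 were higher with TNF and 23 were not called. The TNF count ran from 0 to 8 across scalings, the GC correction and the 2 kb window. ACTA2, smooth muscle actin, held 21.1, 20.1, 24.5 and 20.6 per Mb with TGFB1, 12.3, 20.0, 13.7 and 14.4 with TNF and 20.1, 20.7, 24.7 and 12.4 in unstimulated libraries. Unstimulated libraries spanned both ranges. The difference of 0.52 (SE 0.14, adjusted p = 0.0143) was lost with the GC correction, when all tested peaks set the composition factor, and without TGFB1 library 3, TNF library 1 or TNF library 3 (0.43 to 0.48). MYH9, CALD1 and LPP, which encode nonmuscle myosin, caldesmon and a focal adhesion protein, were higher with TNF at -0.36, -0.36 and -0.52, and none of these calls held with cyclic loess. Those of CALD1 and LPP were also lost without TGFB1 library 3 (-0.25, adjusted p = 0.169 and -0.40, adjusted p = 0.0765). TAGLN, CNN1, MYL9 and TPM1 were not called, at 0.06, -0.07, -0.23 and -0.20. Over 1123 named peaks, 26 were higher with TGFB1 (2.32%) and 24 higher with TNF (2.14%), near the shares of all peaks. Single peaks away from the start sites differed by more. A MYH9 intron peak held 17.0, 15.7, 14.9 and 14.1 per Mb with TNF and 4.22, 6.28, 5.12 and 4.46 with TGFB1, without overlap (difference -1.54, SE 0.20, adjusted p = 5.06e-10). TPM1, a tropomyosin that stabilises actin filaments, had its largest differences at 1.27 (adjusted p = 0.0087) and -1.63 (adjusted p = 0.00278), and CALD1 at 1.31 (adjusted p = 0.0295) and -0.69 (adjusted p = 0.000288).

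Integrin genes had 1 of 14 start-site peaks called, that of the collagen receptor subunit ITGA1, which was higher with TNF at -0.57 (SE 0.12, adjusted p = 0.00051). Away from start sites, ITGB1, the subunit shared by collagen and fibronectin receptors, had 6 of 79 peaks higher with TGFB1 and 2 higher with TNF. The most different was intergenic, 13.4 kb from the nearest start site, which is that of IATPR and not of ITGB1. This peak held 16.4, 13.7, 13.8 and 15.9 per Mb with TGFB1 and 1.5, 3.39, 2.7 and 2.84 with TNF. Unstimulated libraries, at 2.79, 2.54, 4.26 and 3.43, sat with TNF (difference 2.35, SE 0.26, adjusted p = 1.36e-13). ITGA11, a collagen-binding subunit, had 5 of 51 and 1, while ITGAV, a subunit of receptors that bind latent TGF-β, had 0 of 35 higher with TGFB1 and 2 higher with TNF. Over the 515 peaks named for integrins, 15 were higher with TGFB1 (2.91%) and 11 higher with TNF (2.14%), against 1.99% in each direction over all peaks.

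Among transcription factors of the AP-1, C/EBP, RUNX and ETS families, 0 of 27 start-site peaks were higher with TGFB1 and 3 were higher with TNF (ATF3, PRDM1 and FOSL1). The calls of ATF3, PRDM1 and FOSL1 were lost with cyclic loess, and the latter pair without any of several libraries (FOSL1 under 12 of 22 alternatives and PRDM1 under 7). FOS, an AP-1 subunit, had 9 of 41 named peaks higher with TGFB1 and 0 higher with TNF, although the peak at its start site was not called (0.36, adjusted p = 0.147). None of the 9 was called for TGFB1 against unstimulated (median -0.18), and all 9 were called for TNF against unstimulated, with a median of -1.17. The most different held 16.1, 11.1, 11.7 and 11.5 per Mb with TGFB1, 5.3, 5.82, 3.56 and 4.83 with TNF and 19.1, 13.2, 14.7 and 12.7 in unstimulated libraries. TNF was the group apart (difference 1.28, SE 0.17, adjusted p = 8.57e-10). RUNX1, a factor of blood and mesenchymal lineages, had 7 of 130 higher with TGFB1 and 2 higher with TNF. Its intron peak with the SMAD palindrome held 1.65, 1.9, 3.05 and 4.51 per Mb with TGFB1 and 0, 0.418, 0.667 and 0.601 with TNF (difference 1.82, SE 0.40, adjusted p = 0.000694). Among 30 mesenchymal factors, SOX4 was higher with TGFB1 at 0.48 (adjusted p = 0.0123), and TCF21 and TWIST2 were higher with TNF at -0.51 (adjusted p = 0.00391) and -0.47 (adjusted p = 0.0469). The SOX4 call was lost with the GC correction and without TGFB1 library 2 or TNF library 1 (0.44 and 0.45), the TCF21 call with cyclic loess, and the TWIST2 call under 12 of 22 alternatives, including 6 of the 8 that left out a library.

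**Figure D4:**
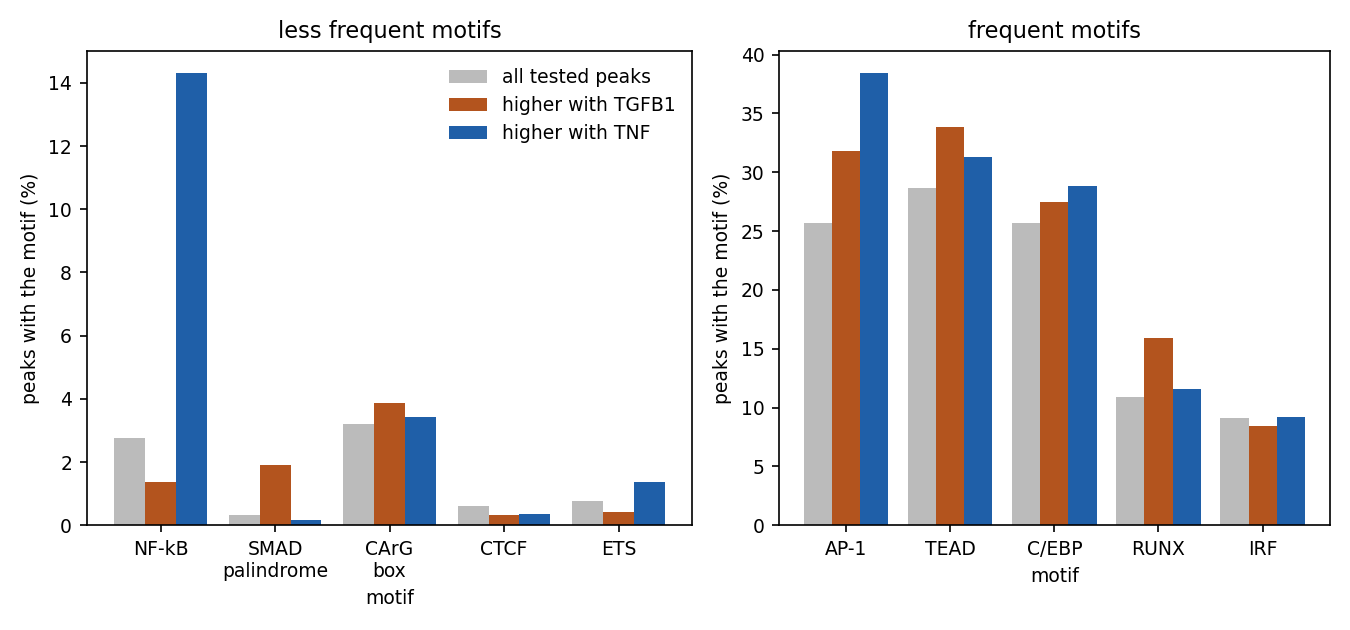
Share of 500-base peaks in percent that hold each of 10 motifs at least 1 time on either strand, for all tested peaks and for peaks called in each direction, on separate axes for less frequent and frequent motifs. The κB motif stands at 14.3% in peaks higher with TNF against 2.77% of all peaks, and the SMAD palindrome at 1.9% in peaks higher with TGFB1 against 0.341%.

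The letters of the peaks were not used in the calls. The κB letters were in 1160 of 8104 peaks higher with TNF (14.3%), in 1.37% of peaks higher with TGFB1 and in 2.77% of all tested peaks. At the stricter level the shares were 17.0% and 0.735%. Read the other way, 10.3% of the 11286 peaks with a copy were higher with TNF and 0.984% were higher with TGFB1. Of the 256 peaks with at least 2 copies, 65 were higher with TNF (25.4%) and 2 were higher with TGFB1. Copies also lay close to the peak centre, at a median of 43 bases in peaks higher with TNF and 83 bases in those higher with TGFB1. Within 100 bases of the centre lay 77.7% of the former copies and 55.8% of the latter.

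The SMAD palindrome GTCTAGAC was in 154 peaks higher with TGFB1 (1.9%), in 14 higher with TNF (0.173%) and in 0.341% of all tested peaks. At the stricter level the shares were 3.64% and 0.145%. Among peaks that averaged 1 per Mb or more they were 2.69% with TGFB1, 0.175% with TNF and 0.38% of all. Of the 1390 peaks with a copy, 11.1% were higher with TGFB1 and 1.01% were higher with TNF. Most peaks higher with TGFB1 thus held no copy. The DNM3 intron peak shown above, deposited under the name C1orf105, held 14.8, 15.0, 17.2 and 13.8 per Mb with TGFB1, 1.28, 3.43, 1.47 and 1.99 with TNF and 1.83, 2.12, 3.32 and 2.67 in unstimulated libraries. TNF and unstimulated libraries were alike in range (difference 2.69, SE 0.30, adjusted p = 9.82e-14). The BDKRB2 peak held 7.94, 7.12, 6.21 and 10.1 per Mb with TGFB1 and 0.334, 1.76, 0.928 and 1.11 with TNF (difference 2.51, SE 0.37, adjusted p = 4.37e-08). The start-site peaks of SMAD6 and COL1A1 each held a copy as well.

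Other motifs were nearer to the background. AP-1 letters (TGANTCA) were in 38.4% of peaks higher with TNF, in 31.8% of those higher with TGFB1 and in 25.7% of all, or 38.6, 36.9 and 30.6% in peaks that averaged 1 per Mb or more. RUNX letters (TGTGGTT) were in 15.9% of peaks higher with TGFB1, 11.6% of those higher with TNF and 10.9% of all, and TEAD letters (GGAATG) in 33.8, 31.3 and 28.7%. ETS letters (CCGGAAGT) stood at 0.419, 1.37 and 0.779%, and CTCF letters (CCAC, any base, AG, any base, TGGC) at 0.32, 0.346 and 0.619%, in the same order. In peaks called under each of 5 scalings the ETS shares were 0.35% with TGFB1 and 0.807% with TNF, the latter close to all tested peaks. C/EBP letters (TTGCNNAA) were in 27.5, 28.8 and 25.7%, IRF letters (GAAA, any 2 bases, GAAA) in 8.41, 9.17 and 9.11% and the CArG box of serum response factor in 3.87, 3.44 and 3.2%. Where a peak higher with TGFB1 held the SMAD palindrome, 42.9% also held AP-1 letters, against 31.6% where it did not, and over all tested peaks the shares were 28.3 and 25.7%. In peaks higher with TNF, AP-1 letters stood beside the κB letters in 32.5% and without them in 39.4%, against 23.8 and 25.8% over all tested peaks. No κB or SMAD copy overlapped an AP-1 copy. A match is a description of letters and says nothing of what was bound.

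**Figure D5:**
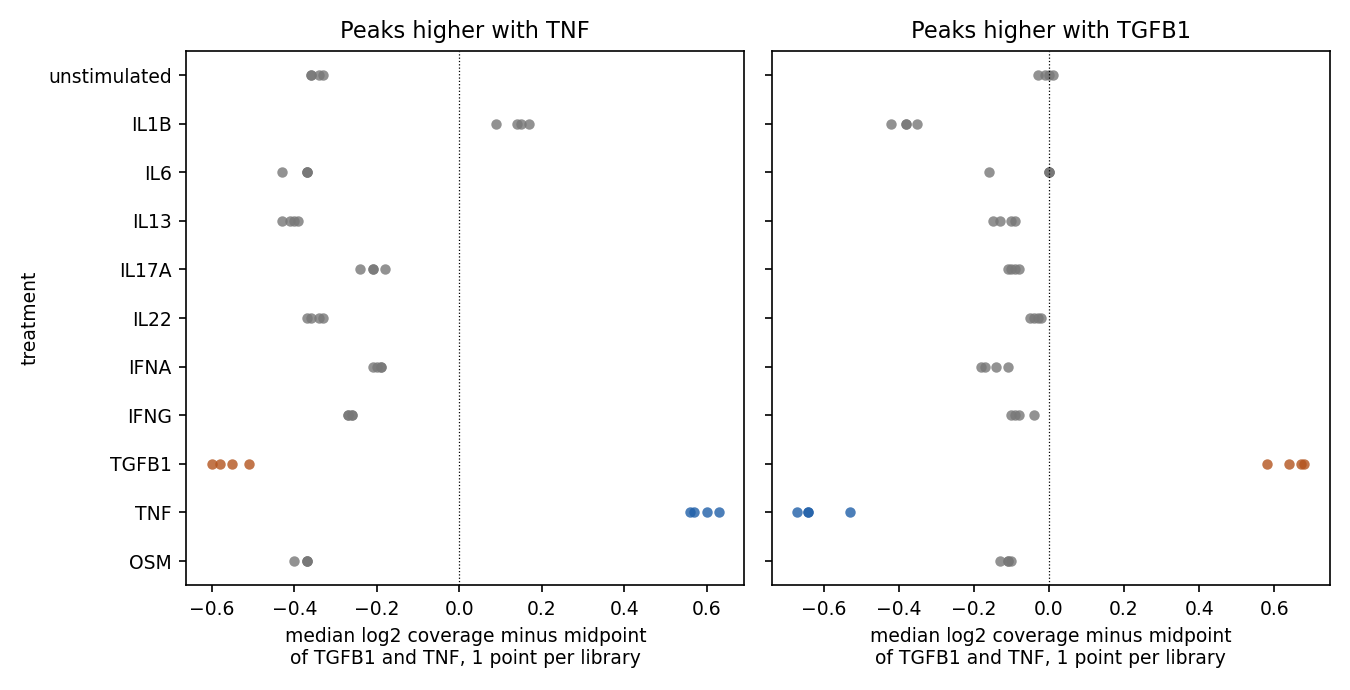
For peaks called under each of 5 scalings, the median log2 coverage of each of the 44 libraries (1 point each) minus the midpoint of the TGFB1 and TNF means, by treatment. The peaks were chosen by the TGFB1 and TNF values, which sets those groups apart. In peaks higher with TNF the IL1B libraries lie nearest to TNF, and in peaks higher with TGFB1 every treatment other than TGFB1 is at or below 0.01.

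Unstimulated libraries were not part of the comparison and give each direction a reference, with the limit that the midpoint is built from the cytokine groups themselves. On a scale where TNF is 0 and TGFB1 is 1, unstimulated cells sat at a median of 0.747 in peaks higher with TNF and at 0.445 in peaks higher with TGFB1. In peaks higher with TNF, 66.8% of unstimulated means were nearer to TGFB1, and 29.9% lay beyond TGFB1, that is, were lower still. In peaks higher with TGFB1 they lay between the cytokines in 75.2%, and split into 55.6% nearer to TNF and 44.4% nearer to TGFB1. At the stricter level the medians were 0.818 and 0.477. Against unstimulated, TGFB1 had 14270 called peaks (3.50%), with 8075 higher (1.98%) and 6195 lower (1.52%), and TNF had 17773 (4.36%), with 10881 higher (2.67%) and 6892 lower (1.69%). Both comparisons use the same unstimulated libraries, so their overlap was not counted.

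The other treatments placed themselves in the same peaks. These peaks were chosen by the TGFB1 and TNF values, so the outer positions of those groups follow from the choice and are not a result. In peaks higher with TNF under each of 5 scalings, IL1B libraries, given at 0.1 ng/ml, lay between 0.09 and 0.17 above the midpoint on the log2 scale, TNF libraries between 0.56 and 0.63, and unstimulated libraries between -0.36 and -0.33. IL17A libraries lay between -0.24 and -0.18, IFNA between -0.21 and -0.19, IFNG between -0.27 and -0.26 and OSM between -0.40 and -0.37, and TGFB1 was lowest, between -0.60 and -0.51. In peaks higher with TGFB1, TGFB1 libraries lay between 0.58 and 0.68 and every other treatment was at or below 0.01. Unstimulated libraries were between -0.03 and 0.01, IL1B between -0.42 and -0.35 and TNF between -0.67 and -0.53. IL17A libraries lay between -0.11 and -0.08, IFNA between -0.18 and -0.11 and IFNG between -0.10 and -0.04. OSM lay between -0.13 and -0.10 and IL13 between -0.15 and -0.09. IL1B, IL17A, IFNA and IFNG libraries were not part of the comparison that chose these peaks, and lay on the TNF side of unstimulated in both sets. OSM and IL13 also lay on that side in peaks higher with TGFB1, so the position there was not particular to those cytokines. In peaks higher with TNF, OSM and IL13 (-0.43 to -0.39) lay on the other side.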

How the data were processed

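Bulk ATAC-seq libraries of the Ccd18-Co line were made by the Omni-ATAC protocol. The authors processed paired-end reads with the ENCODE ATAC-seq pipeline on hg38, and the submitters' processing notes also name MACS2. The deposited values are signal, that is read coverage summed over each of 407383 peaks of 500 bases, unscaled. The study's methods describe a consensus peak set for a smaller set of libraries, and how the fixed-width peaks used here were made is not given in the sources used here. The most frequent low value was 75, taken as the coverage of 1 read, and a floor of 3 reads as 225. Floors cover counting error only. Coordinates are as deposited.

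Columns were matched to samples by the library numbers in the labels. Coverage was divided by the library total in Mb and by a composition factor (trimmed mean of log ratios over peaks covered in every library, trimming 30% of log ratios and 5% of means), 0.5 was added and log2 was taken. Differences are on that scale, which understates changes of low peaks. Peaks with a log2 mean of -3 or below (209) were left out. All 44 libraries entered 1 limma 3.58.1 fit (R 4.3.3) with group as the term and a mean-variance trend. Adjusted p-values are Benjamini-Hochberg values over 407174 peaks, called under 0.05. In simulated data, limma recovered 28 of 100 changes of log2 size 1 and 81 of 100 of size 2. That simulation held 20000 peaks with means of at least 1 per Mb, 200 of them changed, and the same noise setting throughout. Recovery at weaker peaks, or under a shift of the whole table, was therefore not measured.

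Named peaks were the 10 largest called differences in each direction with a mean of at least 1 per Mb and no overlap, at most 1 per gene name; the 5 names with the most calls in each direction; up to 4 called start-site peaks per list with the largest differences, with the receptors and ligands; and the 3 genes per list with the most calls. Some items are not reported here. Other list members were named after their values were seen. The comparison, gene lists and motifs were chosen with earlier results of these data known. Start sites and gene parts came from GENCODE v44, and 96.5% of peaks of the deposited promoter class lay within 2 kb of one.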

Additional observations from a re-analysis of the deposited data

Results flagged for a closer look

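In 15 of 272 groups of 4 libraries checked, 1 library lay further from the others than Dixon's critical value for groups of 4 allows. Chance alone flags about 1 in 20 such groups. TNF library 4 stood apart in depth, with 726.6 Mb of total coverage against 373.4 to 388.8 Mb in the other TNF libraries, and in the share of peaks without coverage, at 3.37% against 9.34 to 10.29%. TGFB1 library 1 was the lowest of its group at the CBR4 peak (7.45 per Mb against 11.4 to 12.0) and at the largest TNF-higher peak of IFI44L (1.09 against 1.29 to 1.33), and the highest at KIF26B (28.5 against 26.2 to 26.4), FOS (16.1 against 11.1 to 11.7) and the TNF-higher peak of TIMP3 (5.06 against 1.8 to 2.1). At that TIMP3 peak TNF library 1 was also the highest of its group (11.5 against 6.35 to 6.94). TNF library 1 was the lowest at the CALD1 start site (45.4 against 49.6 to 50.2) and at the SOD2 intron peak named for WTAP (15.3 against 19.2 to 19.3). TGFB1 library 2 had no coverage at the TNIP3 start site (0 per Mb against 0.471 to 0.545), and TGFB1 library 4 was the highest at the largest TNF-higher peak of LIF (1.53 against 0.372 to 0.503). TNF library 2 was the lowest at the ACTR8 peak (6.43 against 11.5 to 12.4). TNF library 3 was the highest at the TNF-higher peak of TPM1 (4.87 against 3.27 to 3.44), and TNF library 4 at the TGFB1-higher peak of CXCL8 (0.205, with the others at 0).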

How the results depend on the processing

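Calls between TGFB1 and TNF ranged from 10223 to 20994 over the settings tried. With an absolute log2 difference of at least 1 they were 10223 (4095 higher with TNF), and the calls against unstimulated were 7265 for TGFB1 and 10410 for TNF. Peaks higher with TGFB1 numbered 5193 with a pseudocount of 0.1, 3450 with the GC correction and 4303 when all tested peaks set the composition factor, a setting added after seeing the data. Peaks higher with TNF numbered 14550 with the GC correction and 15138 with that factor. Leaving out 1 library gave 11983 to 13387 calls, with 5663 to 6732 higher with TGFB1 and 6320 to 6999 higher with TNF. The replicate block gave 16524 calls. Same-numbered libraries had correlations of deviations of 0, 0.001, -0.001 and -0.006, which gave no sign of pairing by number. They were taken over all tested peaks, with a median coverage of 0.905 per Mb, and at such weak coverage cannot exclude pairing. Of 63 named called peaks, 36 stayed called under every alternative, among them the 20 largest, 27 lost the call under at least 1, and 0 changed sign. The alternative that required an absolute log2 difference of at least 1 removes every smaller call by definition, and the 20 largest all exceed that size. CD82, PTGES, TIMP3, SKI, GREM1, SMAD3, ITGA1 and OAS3 lost the call under that setting only. Counts of alternatives given above for single peaks include it. The cause of the other losses was not tested. Of the peaks higher with TGFB1, 66.4% averaged 1 per Mb or more, against 98.9% of those higher with TNF.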

Other observations

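Enteric glia and pericyte markers gave values that belong to no comparison above. The 4 start-site peaks of enteric glia markers summed to between 3.4 and 4.25 per Mb in TGFB1 libraries, between 1.53 and 2.48 in TNF libraries and between 1.89 and 3.46 in unstimulated libraries, and none of the 4 was called between the cytokines. The 5 pericyte marker peaks summed to between 10.3 and 16.1 per Mb with TGFB1 and between 9.41 and 11.3 with TNF, the 5 smooth muscle marker peaks to between 37.3 and 44.5 and between 42.9 and 47.3, and the 6 endothelial marker peaks to between 5.68 and 10.5 and between 6.24 and 8.12, with no call in any of these lists.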
